A study of Mus musculus with 4 samples.

Results

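A set of 9 genes that route T cells through lymph nodes is described here: the sphingosine 1-phosphate receptors S1pr1 and S1pr4, the chemokine receptors Ccr7 and Cxcr4, the oxysterol receptor Gpr183, the integrin chains Itgb7, Itga4 and Itgal, and the activation antigen Cd69. They were chosen by name, as trafficking receptors and adhesion molecules, and found on the array by matching each probe's transcript accession to RefSeq. All 9 were present, with 11 probes, among 19896 named genes and 39429 probes. The study measured RNA of mouse lymph node CD4 T cells, the helper lymphocytes, on 4 single-colour Agilent arrays. The groups were cells labelled as Med23 knockout after 6 h of stimulation, labelled knockout cells left unstimulated, wildtype cells after 6 h of stimulation and wildtype cells left unstimulated. All cells came from male mice aged 7 weeks. Med23 is a subunit of Mediator, which links transcription factors to RNA polymerase II, and the series asks which genes need it when the T cell receptor is engaged. The sources used here do not say in which cells Med23 was deleted, how CD4 T cells were isolated, which agent stimulated them or how many mice stand behind an array.

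Each group had 1 array and no replicates. The difference between single arrays, or between the genotypes' stimulation differences, has no residual degrees of freedom, so no p-value is given, and a gene counts as higher or lower when it differed at least 2-fold. A fit over all 4 arrays with additive terms for genotype and stimulation, which would have 1 residual degree of freedom, was not run. A level is the log2 signal of a gene after subtraction of the 75th percentile of all probes of that array, and a difference is a log2 difference between single arrays. As a measure of noise between spots, 399 probes printed 10 times each were available, and those with a mean level above the floor were used. Of these, 38 had a mean level above 3, 100 of 0 to 3, 71 of -3 to 0 and 63 from the floor to -3. Among spots of the same probe, a difference of one array to another had an SD of 0.0889 to 0.109 at levels above 3, 0.105 to 0.150 at levels of 0 to 3 and 0.304 to 0.380 at levels of -3 to 0. These SDs say nothing of the spread between mice or cultures. In bulk RNA, fewer cells carrying a transcript and less of it per cell cannot be told apart.

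Naive T cells enter lymph nodes from the blood through CCR7 and the integrin LFA-1, and leave along a gradient of sphingosine 1-phosphate that S1PR1 senses. After antigen contact, CD69 binds S1PR1 and takes it off the cell surface, which holds the cells in the node. The transcription factors KLF2 and FOXO1 keep S1pr1 and Ccr7 switched on in resting T cells, so these genes are commonly read together.

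The arrays were first checked against their labels. The Med23 probe had levels of -2.29 and -1.66 in the stimulated and unstimulated arrays labelled knockout, against -0.75 and -1.59 in the stimulated and unstimulated wildtype arrays. It was thus 2.91-fold lower in the knockout-labelled array after stimulation (-1.54) but differed by -0.07 without stimulation, which goes against the label of that pair. The -1.54 uses the stimulated wildtype array, where this probe was highest. That array also carries transcripts of other blood cells, as described below. The files do not tell whether this probe lies inside the deleted exons, and a probe outside them checks nothing. For this reason the arrays are called "labelled knockout". All 12 T cell markers lay above the floor of -5.01 in every array, with medians of 5.27 to 5.96 and Cd4 between 1.01 and 2.62. The stimulated wildtype array stood apart in markers of other blood cells. In it, 12 of 15 neutrophil and myeloid markers and 5 of 7 red cell markers were at least 2-fold above every other array. The linear levels of the neutrophil and myeloid list summed to 47.0 and 62.7 in the stimulated and unstimulated labelled knockout arrays, against 342 and 58.1 in the stimulated and unstimulated wildtype arrays. Outside the stimulated wildtype array most of each sum came from Csf3r, whose level was 5.41 to 5.90 in every array. The median level of the list was -3.72 and -3.37 in the stimulated and unstimulated labelled knockout arrays, against 3.90 and -3.83 in the wildtype ones. For red cell markers the sums were 0.926 and 0.862 in the labelled knockout arrays, against 154 and 0.788 in the wildtype arrays. S100a8, Ltf and Hba-a1 were at the floor in the stimulated labelled knockout and unstimulated wildtype arrays. Neutrophils also express Cxcr4, Itgal and Klf2, and the part of such cells in the values of the stimulated wildtype array was not tested.

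**Figure D1:**
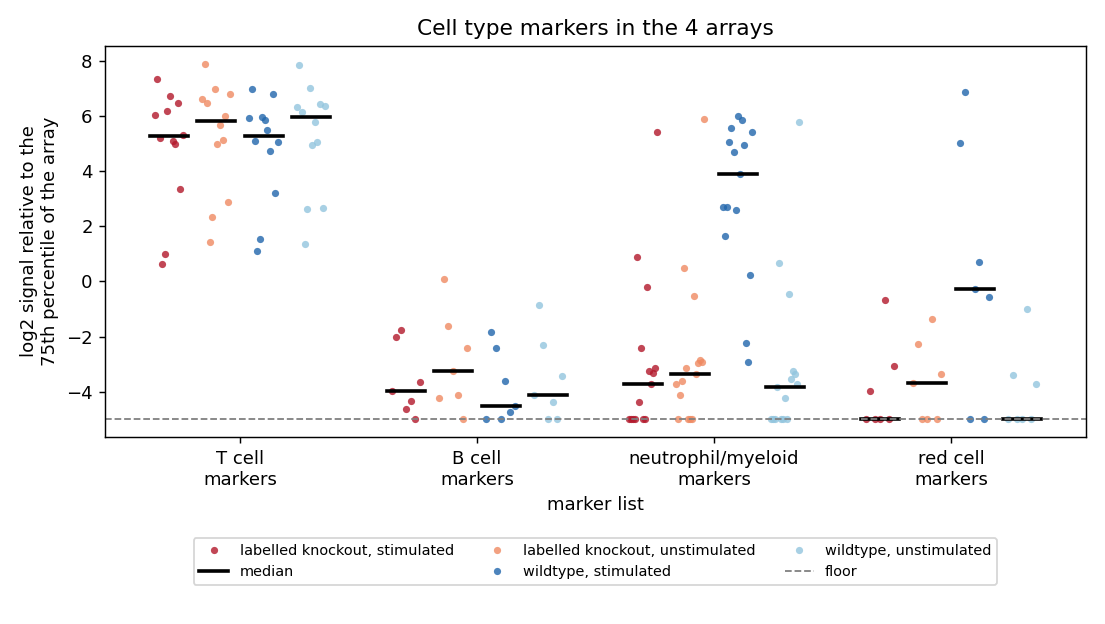
Levels of marker genes (points) and their medians (bars) in the 4 arrays, as log2 signal scaled to each array's 75th percentile, with the floor dashed. T cell markers have medians of 5.27 to 5.96 in all arrays, while neutrophil, myeloid and red cell markers are high in the stimulated wildtype array.

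After stimulation S1pr1, S1pr4, Cxcr4 and Itgb7 were lower and Cd69 was higher in both genotypes. In the arrays labelled knockout, 2 of the 9 genes were 2-fold higher (Gpr183 and Cd69) and 4 were lower (S1pr1, S1pr4, Cxcr4 and Itgb7), where 27.3% of 14229 measured genes differed 2-fold in either direction. In wildtype, 1 was higher (Cd69) and 6 were lower (S1pr1, S1pr4, Ccr7, Cxcr4, Itgb7 and Itga4), where 27% of 14619 genes differed. Lower genes alone made up 13.8% of all genes in the labelled knockout pair and 12.8% in the wildtype pair, and higher genes 13.5% and 14.2%. The median difference of the 9 genes was -0.86 in the labelled knockout arrays (all genes 0.05) and -1.50 in wildtype (all genes -0.02). The -0.86 is the value of Itga4, which is averaged with a probe at the floor. With the brightest probe per gene the medians were -1.26 in the labelled knockout arrays and -1.74 in wildtype. Over the 9 alternatives they ran from -1.30 to -0.51 in the labelled knockout arrays and from -1.76 to -0.61 in wildtype. The labelled knockout pair uses neither wildtype array.

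**Figure D2:**
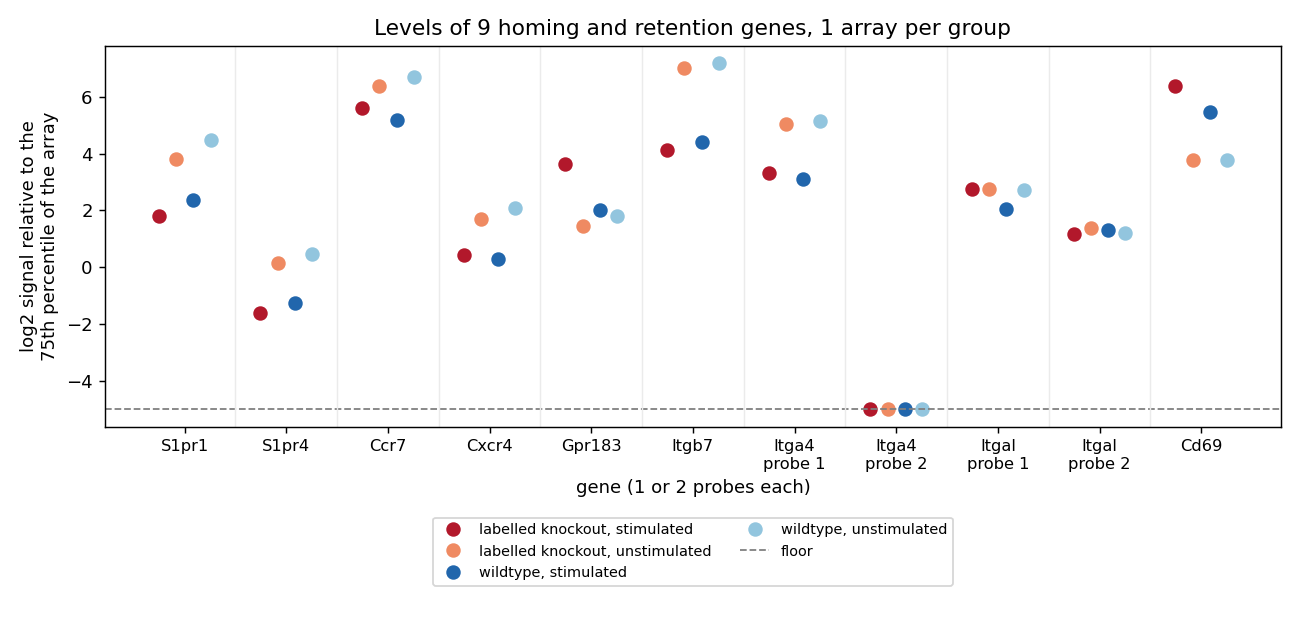
Level of each probe of the 9 genes in the 4 arrays (1 point per array), as log2 signal scaled to each array's 75th percentile, with the floor dashed. S1pr1, S1pr4, Ccr7, Cxcr4, Itgb7 and the first Itga4 probe lie lower in both stimulated arrays than in both unstimulated ones, Cd69 lies higher, and the second Itga4 probe sits on the floor throughout.

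Exit receptors come first. S1pr1, the receptor that draws lymphocytes into lymph, had levels of 1.81 and 3.82 in the stimulated and unstimulated arrays labelled knockout, against 2.36 and 4.49 in the stimulated and unstimulated wildtype arrays. Both stimulated arrays lay below both unstimulated ones. The transcript was 4.03-fold lower after stimulation in the labelled knockout arrays (-2.01) and 4.35-fold lower in wildtype (-2.12), and these differences were 0.11 apart. A more negative difference was seen for 2.99% of measured genes in the labelled knockout pair and 1.76% in the wildtype pair. S1pr4, a related receptor found mainly on blood cells, had levels of -1.63 and 0.13 in the stimulated and unstimulated labelled knockout arrays, against -1.28 and 0.46 in the wildtype ones. It was 3.37-fold lower in the labelled knockout arrays (-1.75) and 3.33-fold lower in wildtype (-1.74), the same order of arrays as for S1pr1. The difference between genotypes in this response, -0.02, was smaller than the SD between spots at this level (0.474).

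The CCR7 protein, the receptor for the lymph node chemokines CCL19 and CCL21, draws naive T cells and dendritic cells into the node. Ccr7 had levels of 5.62 and 6.38 in the stimulated and unstimulated labelled knockout arrays, against 5.18 and 6.68 in the wildtype ones. Again both stimulated arrays were the lower ones. It was 1.70-fold lower in the labelled knockout arrays (-0.76), short of the 2-fold rule, and 2.83-fold lower in wildtype (-1.50), and the gap between them was 0.74. That gap passed the 2-fold rule with scaling to the median (1.03, where the median of all genes was 0.34) and in no other of the 9 alternatives.

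Itgal encodes the alpha chain of LFA-1, the integrin that arrests lymphocytes on ICAM-1, and has 2 probes. The probe A_51_P466378 had levels of 2.74 and 2.76 in the stimulated and unstimulated labelled knockout arrays, against 2.03 and 2.72 in the wildtype ones. The probe A_55_P2184601 had levels of 1.16 and 1.39 in the stimulated and unstimulated labelled knockout arrays, against 1.29 and 1.21 in the wildtype ones. No difference on either probe reached 2-fold. The probes disagreed in wildtype, at -0.68 and 0.08, and in the labelled knockout arrays they gave -0.02 and -0.23. Their mean was -0.13 in the labelled knockout arrays and -0.30 in wildtype, and it turned positive, to 0.59 in each, when arrays were centred on T cell markers.

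The integrin alpha4 beta7 guides T cells to gut-associated tissue by binding MAdCAM-1, and a probe of each of its chains was lower after stimulation in both genotypes. Itgb7, the beta chain, had levels of 4.11 and 7.00 in the stimulated and unstimulated labelled knockout arrays, against 4.42 and 7.18 in the wildtype ones. This was the largest difference among the 9 genes, 7.41-fold lower in the labelled knockout arrays (-2.89) and 6.80-fold lower in wildtype (-2.76). In each pair under 1% of measured genes were more negative, 0.703% and 0.554%. Itga4, the alpha chain, has a bright and a dim probe. The bright probe, A_55_P2040026, had levels of 3.32 and 5.05 in the stimulated and unstimulated labelled knockout arrays, against 3.11 and 5.14 in the wildtype ones. It was 3.31-fold lower in the labelled knockout arrays (-1.73) and 4.09-fold lower in wildtype (-2.03). The dim probe, A_66_P140103, was at the floor in all 4 arrays and carries no information on a change. Averaging the probes, as was done for every gene, brought the Itga4 differences to -0.86 in the labelled knockout arrays and -1.02 in wildtype, so the count of 4 lower genes in the labelled knockout arrays would be 5 on the bright probe alone.

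The receptors that position T cells inside tissue differed in direction in the labelled knockout arrays. Cxcr4, the receptor for CXCL12, had levels of 0.44 and 1.71 in the stimulated and unstimulated labelled knockout arrays, against 0.29 and 2.07 in the wildtype ones. It was 2.40-fold lower in the labelled knockout arrays (-1.26) and 3.45-fold lower in wildtype (-1.79). Gpr183, also called EBI2, responds to oxysterols and places activated T cells at the edge of the follicle. Its levels were 3.62 and 1.46 in the stimulated and unstimulated labelled knockout arrays, against 1.998 and 1.80 in the wildtype ones, so 1 array, the stimulated one labelled knockout, stood above the other 3. The stimulation difference was 4.45-fold in the labelled knockout arrays (2.15) and 1.15-fold in wildtype (0.20), and the wildtype value was -0.05 with scaling to the median and 1.08 when centred on T cell markers.

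Cd69 had levels of 6.39 and 3.77 in the stimulated and unstimulated labelled knockout arrays, against 5.46 and 3.76 in the wildtype ones. It was 6.17-fold higher after stimulation in the labelled knockout arrays (2.63) and 3.24-fold higher in wildtype (1.69). The unstimulated arrays did not differ beyond the noise between spots. Cd69 and S1pr1, whose proteins bind each other, thus moved in opposite directions in each pair of arrays.

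**Figure D3:**
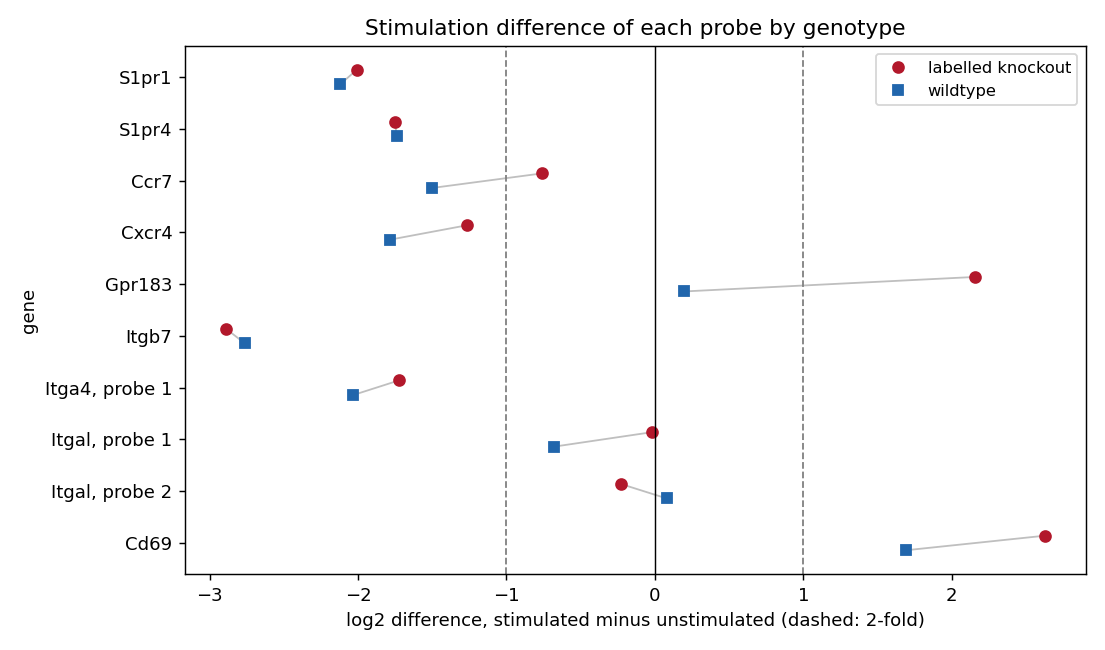
Log2 difference between the stimulated and the unstimulated array for each probe above the floor, in the labelled knockout pair (circles) and the wildtype pair (squares), with 2-fold dashed. S1pr1, S1pr4, Itgb7 and Itga4 have close values in both genotypes, while Gpr183 is at 2.15 in the labelled knockout pair and 0.20 in the wildtype pair.

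Centring the arrays on the 12 T cell markers moved the stimulation differences of all 9 genes up. S1pr1, for example, went from -2.01 to -1.30 in the labelled knockout pair and from -2.12 to -1.23 in wildtype. The shift is set by the median over the marker probes of each array. Averaged per gene, the markers were lower after stimulation (medians of -0.56 in the labelled knockout and -0.38 in the wildtype pair), but these medians do not give the size of the shift. The median of all genes became 0.63 in the labelled knockout pair and 0.73 in the wildtype pair. Under it S1pr4, Ccr7 and Cxcr4 lost their 2-fold call in wildtype (-0.85, -0.61 and -0.90), as did Cxcr4 in the labelled knockout arrays (-0.55). Taken relative to the shifted median of all genes, these values were -1.58, -1.34 and -1.62 in wildtype and -1.18 for Cxcr4 in the labelled knockout arrays. S1pr1, Itgb7 and Cd69 kept their calls in both genotypes under all 9 alternatives.

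Upstream DNA was read for the members with a RefSeq promoter entry, because several of them moved together and KLF factors bind CACCC boxes. Of the 9 genes 5 had an entry (S1pr4, Cxcr4, Gpr183, Itgb7 and Itga4). The 250 bases before the start site (RefSeq, build GRCm38.p6) are shown for both integrin chains, for S1pr4 and for Gpr183, which was higher after stimulation in the labelled knockout arrays, with CACCC or its reverse complement GGGTG in capitals. Itgb7 lies at chr15:102231936-102232185 on the minus strand, Itga4 at chr2:79255176-79255425 on the plus strand, S1pr4 at chr10:81500138-81500387 on the minus strand and Gpr183 at chr14:121965194-121965443 on the minus strand.
Itgb7: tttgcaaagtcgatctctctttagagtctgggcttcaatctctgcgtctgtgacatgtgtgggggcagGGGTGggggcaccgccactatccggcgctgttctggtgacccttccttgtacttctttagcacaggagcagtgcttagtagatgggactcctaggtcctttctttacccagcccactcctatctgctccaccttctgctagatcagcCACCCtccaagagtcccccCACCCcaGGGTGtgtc
Itga4: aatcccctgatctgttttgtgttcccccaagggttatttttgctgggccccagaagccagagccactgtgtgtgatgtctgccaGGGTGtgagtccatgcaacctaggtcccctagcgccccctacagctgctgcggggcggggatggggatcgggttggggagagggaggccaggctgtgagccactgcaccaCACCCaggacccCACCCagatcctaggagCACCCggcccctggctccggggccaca
S1pr4: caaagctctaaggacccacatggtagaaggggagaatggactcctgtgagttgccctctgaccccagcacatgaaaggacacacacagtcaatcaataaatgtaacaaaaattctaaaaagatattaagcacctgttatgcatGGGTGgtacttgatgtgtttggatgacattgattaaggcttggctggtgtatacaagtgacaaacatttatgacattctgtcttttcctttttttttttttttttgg
Gpr183: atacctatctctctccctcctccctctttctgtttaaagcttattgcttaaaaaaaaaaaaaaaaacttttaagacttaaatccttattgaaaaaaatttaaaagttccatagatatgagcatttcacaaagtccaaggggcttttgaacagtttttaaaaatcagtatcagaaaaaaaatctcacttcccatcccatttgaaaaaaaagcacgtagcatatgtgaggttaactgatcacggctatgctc

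The motif CACCC, searched on both strands, occurred 4 times in the Itgb7 window, 4 times in the Itga4 window, 1 time each in the S1pr4 and Cxcr4 windows and 0 times in the Gpr183 window. The Itgb7 matches began 182, 35, 16 and 9 bases before the start site and those of Itga4 166, 56, 44 and 27 bases before it. Of 32817 mouse promoter windows of the same length, 52.0% held the motif, so its presence is common. The FOXO motif GTAAACA, also searched on both strands, was found in 0 of the 5 windows and in 3.16% of all windows. These matches describe letters in a window and not binding.

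The factors themselves were read beside these genes. Klf2 had levels of 4.74 and 6.36 in the stimulated and unstimulated labelled knockout arrays, against 5.78 and 6.76 in the wildtype ones. It was 3.07-fold lower after stimulation in the labelled knockout arrays (-1.62) and 1.97-fold lower in wildtype (-0.98). Foxo1, the mean of 2 probes, differed by -1.53 in the labelled knockout arrays and -2.21 in wildtype, both past 2-fold. Klf2 in wildtype was just short of 2-fold, and passed it in 3 of the 9 alternatives. In the labelled knockout arrays Klf2 (-0.90) and Foxo1 (-0.81) lost their 2-fold call when centred on T cell markers.

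Between genotypes without stimulation, 0 of the 9 genes were 2-fold higher and 0 lower, where 4.73% of 14008 genes differed (3.31% higher and 1.42% lower). S1pr1 had the largest value, 1.59-fold lower in the labelled knockout array (-0.67), and 3.52% of genes were more negative. Cxcr4 (-0.36), Gpr183 (-0.34), S1pr4 (-0.33), Ccr7 (-0.30), Itgb7 (-0.18) and Itga4 (-0.04) were also below wildtype, and these 7 values kept their sign in all 9 alternatives. Cd69 (0.00) and Itgal (0.11) were not below it. The median of the 9 genes was -0.30, against -0.02 for all genes.

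After stimulation the labelled knockout array stood above wildtype for 1 of the 9 genes by the 2-fold rule and below it for 0, where 13.1% of 14629 genes differed 2-fold (4.98% higher and 8.13% lower). That gene was Gpr183, 3.07-fold higher (1.62), a value exceeded by 1.45% of genes. Cd69 was next, 1.91-fold higher (0.93), and was past 2-fold with scaling to the median (1.14), which moved the median of all genes to 0.28. Ccr7 (0.43), Itgal (0.29), Cxcr4 (0.16) and Itga4 (0.11) were above wildtype by less than 2-fold, although Cxcr4 and Itga4 changed sign in some alternatives. The Itgal probes differed in sign, at 0.70 (A_51_P466378) and -0.13 (A_55_P2184601). S1pr1 (-0.55), S1pr4 (-0.35) and Itgb7 (-0.30) were below wildtype in all 9 alternatives. Klf2 was 2.05-fold lower (-1.03) in the labelled knockout array, and its call was lost with scaling to the median (-0.83). These differences all use the stimulated wildtype array that carries the neutrophil and red cell transcripts, and the part of those cells in them was not tested.

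The difference between the genotypes' stimulation differences bears most directly on the question of the series. It too uses the stimulated wildtype array with the neutrophil and red cell transcripts, and the part of those cells in it was not tested. This difference was past 2-fold for 1 of the 9 genes, a higher value in the labelled knockout arrays, against 17.7% of 15230 genes (7.07% higher and 10.6% lower). Gpr183 had a value of 1.96, and it stayed between 1.75 and 2.25 in the 9 alternatives, with 1.05% of all genes above it. Cd69 followed at 0.93 (range 0.76 to 1.22), then Ccr7 at 0.74 (0.56 to 1.03) and Cxcr4 at 0.52 (0.35 to 0.81). All 4 were above 0 in every alternative, that is, toward a larger rise or a smaller fall in the labelled knockout arrays. Itgal (0.18), Itga4 (0.15), S1pr1 (0.11), S1pr4 (-0.02) and Itgb7 (-0.12) lay closer to 0, near the all-gene median of 0.09. The sign changed in some alternatives for S1pr1, S1pr4, Itga4 and Itgb7. The Itgal value averages probes of opposite sign, at 0.66 (A_51_P466378) and -0.31 (A_55_P2184601). The bright Itga4 probe alone gave 0.31. The SD of the difference between stimulation differences among spots was 0.154 for a level above 3 and 0.192 for a level of 0 to 3. It was 0.474 for a level of -3 to 0 and 0.991 from the floor to -3.

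**Figure D4:**
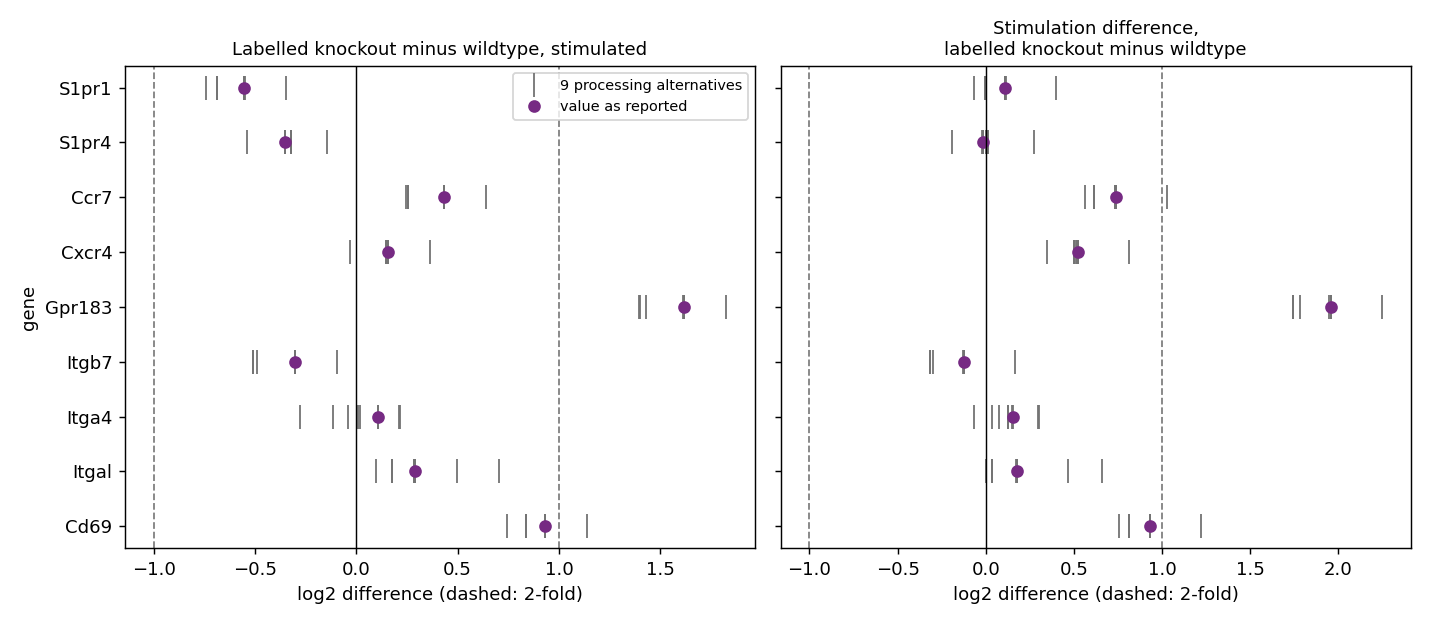
Log2 difference of each gene between the labelled knockout and wildtype arrays after stimulation (left) and between their stimulation differences (right), with the reported value as a point, the 9 processing alternatives as ticks and 2-fold dashed. Gpr183 is past 2-fold in every setting in both panels, and S1pr1, S1pr4 and Itgb7 lie near 0 on the right.

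Other genes of the trafficking pathway were taken from 9 lists that hold 122 genes, 120 of them with a probe. Their counts are to be read against the share of all genes past 2-fold, which was 13.5% higher and 13.8% lower in the labelled knockout pair and 14.2% higher and 12.8% lower in the wildtype pair. Of the genes named below, 21 were past 2-fold in the same direction in both genotypes, and 8 of these kept both calls in every alternative (Ccr6, Ccr8, Chst2, Rasgrp2, Rgs14, Rgs16, Stk10 and Arhgap45), while 12 lost a call when centred on T cell markers. In migration machinery, the regulators of the actin cytoskeleton that move T cells, 9 of 19 measured genes (47.4%) were lower and 0 higher in the labelled knockout arrays (median -0.97), and 9 of 19 were lower and 0 higher in wildtype (median -0.96). The medians stayed below 0 in all alternatives, up to -0.26 in the labelled knockout arrays and -0.08 in wildtype when centred on T cell markers. The kinase Stk10 (-2.27 in the labelled knockout arrays and -2.13 in wildtype), Arhgap45 (-2.20 and -1.90), the GTPase Rac2 (-1.99 and -1.79) and the kinase Prkd2 (-1.71 and -1.82) led the 7 genes lower in both. Between the genotypes' stimulation differences 0 of the 19 passed 2-fold. In these lists, a value between stimulation differences is the labelled knockout one minus the wildtype one. Its sign need not match the difference between the labelled knockout and wildtype arrays. Each such value uses the stimulated wildtype array with the neutrophil and red cell transcripts, and the part of those cells was not tested.

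G protein signalling genes relay and damp receptor signals. Of 15 measured, 3 were higher and 6 lower in the labelled knockout arrays (median -0.69), and of 16 in wildtype 3 were higher (18.8%) and 6 lower (37.5%; median -0.58). Both medians turned positive when centred on T cell markers (0.02 and 0.30). Rgs16, which switches off Gi-coupled receptors, was higher in both (5.27 in the labelled knockout arrays and 3.75 in wildtype). Rgs14 (-3.14 and -1.96), the receptor kinase Grk2 (-2.18 and -1.24) and the arrestin Arrb2 (-3.06 and -1.16), which desensitises chemokine receptors, were lower in both. Gnai2, the Gi alpha subunit through which S1PR1, CCR7, CXCR4 and GPR183 signal in lymphocytes, differed most between genotypes. Its single probe had levels of -0.82 and 1.83 in the stimulated and unstimulated labelled knockout arrays, against 2.97 and 1.58 in the wildtype ones. The stimulation difference was thus -2.66 in the labelled knockout arrays and 1.39 in wildtype, a gap of -4.05. Of 16 genes 7 had stimulation differences more than 2-fold apart between genotypes (17.7% of all genes did), among them Arrb2 (-1.90) and Rgs16 (1.52), and Rgs18 was at the floor in every array but the stimulated wildtype one (level -3.21).

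Of 18 integrin activation genes measured in the labelled knockout arrays 4 were lower (22.2%) and 0 higher (median -0.66), and of 17 in wildtype 7 were lower (41.2%) and 2 higher (11.8%; median -0.23), medians that turned positive when centred on T cell markers (0.06 and 0.65). Rasgrp2, the exchange factor that loads Rap1, was lower in both (-4.07 in the labelled knockout arrays and -2.94 in wildtype). The adaptor Skap1 (-1.34 in each) and Cyth1 (-1.05 in the labelled knockout arrays and -1.16 in wildtype) were also lower in both, but Cyth1 lost its call in the labelled knockout arrays in 5 of the 9 alternatives (-0.30 at the least) and Skap1 lost both calls when centred on T cell markers (-0.62 in the labelled knockout arrays and -0.46 in wildtype). Vcl (-2.10), Fyb (-1.69), Rapgef1 (-1.42) and Rasgrp2 (-1.12) had a more negative stimulation difference in the labelled knockout arrays, the value of Fyb being lost in 3 alternatives (-0.28 at the least) and that of Rasgrp2 in 2 (-0.67 at the least). Among 12 other integrin chains measured in the labelled knockout arrays 4 were higher (33.3%) and 2 lower (16.7%; median 0.01), and among 11 in wildtype 3 were higher (27.3%) and 1 lower (9.09%; median 0.42). Itgav (2.22 in the labelled knockout arrays and 1.79 in wildtype) was higher and Itga6 (-1.20 and -1.37) lower in both. Between stimulation differences Itgb8 (at least 1.33), Itgb5 (-1.31), Itgax (-1.30) and Itgam (-1.20) were past 2-fold. Itgam turned to 0.27 with the brightest probe, and Itgb8 and Itgax were at 0.00 under a floor at the 60th percentile. Itgax, a myeloid integrin like Itgam, differed between labelled knockout and wildtype by -0.03 with stimulation and by 1.26 without it. Itgam differed by -1.14 with stimulation and by 0.06 without it.

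Of 12 chemokine receptors measured outside the set, 2 were higher (16.7%) and 5 lower (41.7%) in the labelled knockout arrays (median -0.60) and 1 was higher (8.33%) and 4 lower (33.3%) in wildtype (median 0.22), and the sign of both medians depended on the scaling or the floor. Ccr6 (-2.12 in the labelled knockout arrays and -2.22 in wildtype), the follicular receptor Cxcr5 (-1.30 and -1.85) and Ccr10 (-2.65 and -1.15) were lower in both, and Ccr8 was higher in both (2.99 and 1.58). Between stimulation differences 5 of the 12 were past 2-fold, 2 higher and 3 lower (7.07% and 10.6% of all genes were). The 4 largest were Ccr2 (at most -3.81), Ccr3 (at most -1.96), Ccr10 (-1.50) and Ccr8 (1.41), and the naming rule leaves out the remaining one, a higher value. The calls of Ccr2 and Ccr3 were lost under a floor at the 60th percentile (-0.81 and 0.00). Of the selectin list, 1 of 14 genes was higher (7.14%) and 5 lower (35.7%) in the labelled knockout arrays (median -0.77), and 3 of 15 were higher and 3 lower in wildtype (median -0.03, and 0.63 when centred on T cell markers). Selplg, the P-selectin ligand (-1.56 in the labelled knockout arrays and -1.78 in wildtype), and the sialyltransferase St3gal6 (-2.33 and -1.42) were lower in both, and the sulfotransferase Chst2 (2.97 and 3.11) was higher in both. Vcam1 (-1.43) and St3gal4 (-1.38) were past 2-fold between stimulation differences, though not under a floor at the 60th percentile (-0.19 and -0.26). Both lie under -3 on average over the arrays, where the SD of this quantity between spots was 0.991.

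Further genes make, move or sense sphingosine phosphate and oxysterols. Of 9 measured in the labelled knockout arrays 0 were higher and 0 lower (median 0.18), and of 10 in wildtype 3 were higher (30.0%) and 0 lower (median 0.18, and -0.12 in the lowest alternative). S1pr3 (1.38) and the transporters Spns2 (-1.22) and Mfsd2b (-1.02) were past 2-fold between stimulation differences. There Spns2 turned to 0.071 under a floor at the 60th percentile and Mfsd2b lost its call in 4 alternatives (-0.48 at the least). Of the upstream factors Klf2, Foxo1 and Foxo3, 2 of 3 were lower in the labelled knockout arrays and 1 of 3 in wildtype. The lymph node chemokines, products of stroma, had 3 genes on the array, of which 1 was lower and 0 higher in the labelled knockout arrays and 0 of the 2 measured differed in wildtype. Ccl19 was the gene past 2-fold between stimulation differences (-1.12). That call was lost in 6 of the 9 alternatives, and the value turned to 0.43 with the brightest probe.

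**Figure D5:**
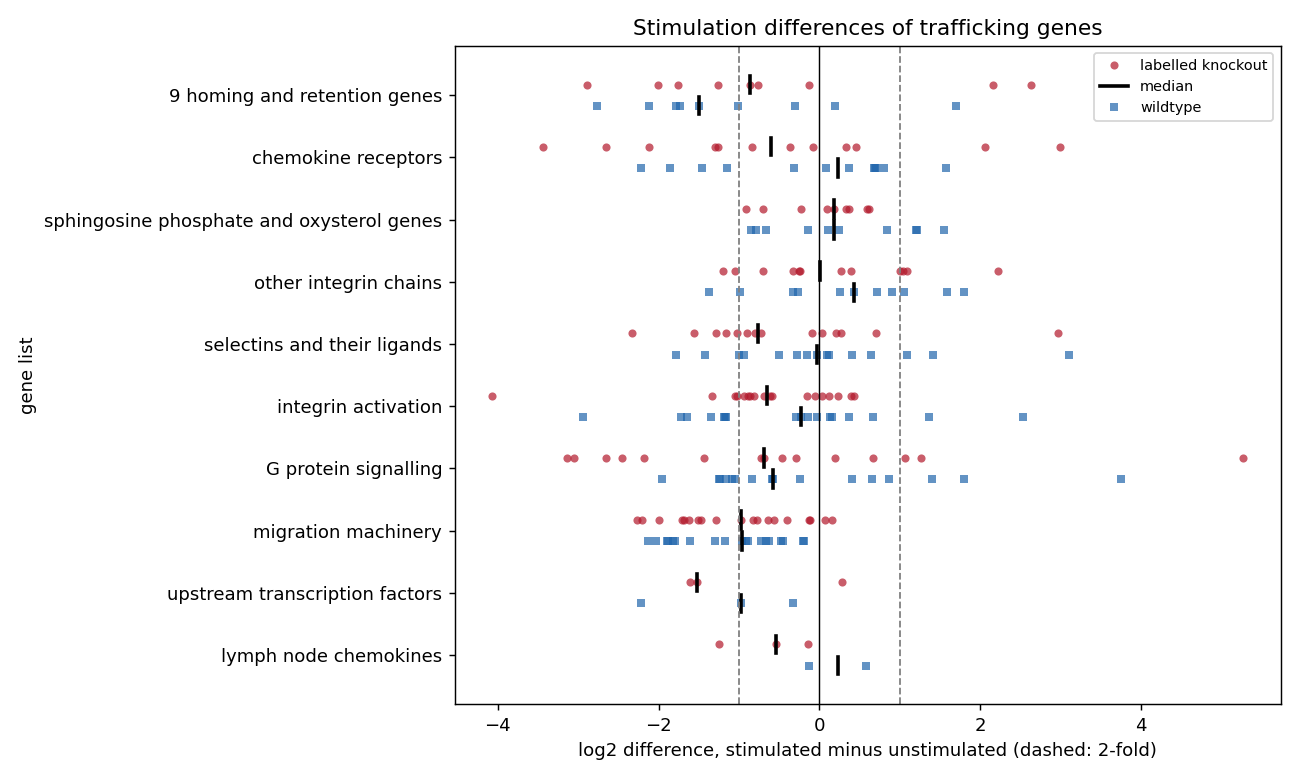
Log2 difference between stimulated and unstimulated arrays for each measured gene of the 9 homing and retention genes and 9 further trafficking lists, in the labelled knockout pair (circles) and the wildtype pair (squares), with medians as bars and 2-fold dashed. The 9 genes have medians of -0.86 and -1.50 and migration machinery -0.97 and -0.96, in the labelled knockout and wildtype pairs. The 9 genes, chemokine receptors and G protein signalling genes have points past 2-fold on both sides, while migration machinery has none that are 2-fold higher.

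The genes nearest in pattern to 3 members were sought among 10737 others above the floor in every array, by Euclidean distance of levels centred over the 4 arrays. With 4 arrays many genes share a pattern, and nearness is given as a description. For Cd69 they were Nfkbid (distance 0.161), an inhibitor protein of the NF-kB family, Smyd5 (0.171) and Noc4l (0.172). For S1pr1 they were the histone gene H4c17 (0.123), the kinase Tnik (0.185) and Pced1b (0.220). For Ccr7 they were the ubiquitin ligase Smurf2 (0.0233), the carrier Slc25a30 (0.0382) and Cep95 (0.0459).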

How the data were processed

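RNA of 4 mouse CD4 T cell samples was measured on 4 single-colour Cy3 arrays, from 1 µg of total RNA each per the labels. In the deposited raw table every spot has a linear intensity from Agilent Feature Extraction 10.7.3.1, per the submitters' processing notes, without normalization between arrays and without detection flags, so a floor stood in for detection. A second deposited table gives the authors' normalized log2 values for 17878 probes, and the header of the raw table names GeneSpring GX 11.5.1 for normalization. No method or filter is stated there. The values correlated with a quantile normalization of the raw table at 0.99995 or more per array, and column medians were 8.54 and 8.53 for the stimulated and unstimulated labelled knockout arrays and 8.51 and 8.54 for the wildtype ones.

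Spots of a probe were averaged as log2 values (1377 control spots left out), the 75th percentile of the array was subtracted, and values under the floor (log2 -5.01, the median over arrays of their 40th percentiles) were set to it. Before scaling, that percentile was 243.7, 332.6, 680.8 and 269.1 in the order of groups in the report, so the stimulated wildtype array was 2.05 to 2.79 times as bright as the others. Probes were named through a RefSeq gene table of GRCm38.p6, used for names: 26299 of 39429 were named, and a gene's probes were averaged. A gene counts as measured if 1 or more of the compared arrays exceed the floor. Where 1 array is at the floor, the value is a bound ("at most" or "at least"). The 9 genes, the lists and the settings were chosen with earlier results of these data known. The naming rule took in all 9 genes, with Klf2, Foxo1 and Med23. In each further list it took up to 4 genes past 2-fold in the same direction in both genotypes. It also took up to 4 past 2-fold between the genotypes' stimulation differences. One further gene of that rule is not reported here. The alternatives were other scalings (median, quantile, T cell markers), the authors' values, floors at the 20th and 60th percentile, a pseudocount in place of the floor, the brightest probe and the median of spots. The steps were tested on simulated data with 1 probe per gene, small noise and changes in brighter probes only. That test does not cover genes near the floor or genes averaged over several probes. Python 3.11.15, numpy 2.4.6 and pandas 2.3.3 were used. Precision is limited by the number of arrays.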

Additional observations from a re-analysis of the deposited data

Results flagged for a closer look

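Some genes had a stimulation difference above 0 in one genotype and below 0 in the other. With 1 array per group the difference was not tested. Med23 itself differed by -0.63 in the labelled knockout arrays and by 0.84 in wildtype. Among the 9 homing and retention genes this was seen for 1 probe of Itgal, A_55_P2184601, at -0.23 in the labelled knockout arrays and 0.080 in wildtype, while the other Itgal probe was negative in both.

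In the further trafficking lists 26 genes had opposite signs, and given here are the 10 of them that the report names. On the lower side, Gnai2 was at -2.66 in the labelled knockout arrays and 1.39 in wildtype, Ccr2 at -3.44 (at most) and 0.37, and Ccr3 at -1.26 (at most) and 0.70. Itgb5 was at -1.05 in the labelled knockout arrays and 0.26 in wildtype, Vcam1 at -1.02 and 0.40, and Fyb at -1.02 and 0.66. Itgax was at -0.25 in the labelled knockout arrays and 1.05 in wildtype, and Rapgef1 at -0.056 and 1.37. On the higher side, S1pr3 was at 0.59 in the labelled knockout arrays and -0.79 in wildtype, and Itgb8 at 1.00 (at least) and -0.33. Ccr2, Ccr3, Itgb8, Itgax and Vcam1 lie near the floor, where noise between spots is largest (SD 0.590 to 0.816).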

How the results depend on the processing

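Of 45 differences of the 9 genes (5 comparisons), 15 were past 2-fold. All 15 kept their sign under the 9 alternatives and 10 of 15 kept the call in each. The exceptions were S1pr4, Ccr7 and Cxcr4 in wildtype and Cxcr4 in the labelled knockout arrays, lost when centred on T cell markers, and Itga4 in wildtype, lost there (-0.44), under the pseudocount and under a 20th percentile floor. The count of the 9 genes past 2-fold was 7 in wildtype and 4 when centred on T cell markers (2 higher, 2 lower). With scaling to the median it was 2 in place of 1 between stimulated arrays and 3 in place of 1 between stimulation differences, the additions being Cd69 and, between stimulation differences, Ccr7.
Counts over all genes past 2-fold moved by more than 1.5 times in these cases. Between stimulated arrays there were 1918, against 1169 in the authors' values and 2922 and 864 under 20th and 60th percentile floors. Between unstimulated arrays there were 662, against 276, 1310 and 201 under the same settings. Between stimulation differences there were 2696, against 1575, 4132 and 1287. Stimulation in wildtype gave 3949, against 6045 when centred on T cell markers and 2506 under a 60th percentile floor. Higher genes were 49.4% of those called in the labelled knockout pair and 86.2% when centred on T cell markers. In wildtype they were 52.6%, against 92.9% so centred, 36.2% with scaling to the median and 41.6% in the authors' values. Between stimulated arrays the share was 38.0%, against 24.1%, 59.97% and 51.8% in that order, and between stimulation differences 39.9%, against 25.2%, 66.9% and 52.6%.
Some named genes reversed. With the brightest probe, Itgam was at 0.41 between stimulated arrays and 0.27 between stimulation differences, and Ccl19 was at 0.43 between stimulation differences. With the floor at the 60th percentile Spns2 was at 0.071 between stimulation differences. The cause was not tested. Of the 22 list genes named as past 2-fold between stimulation differences, 9 kept the call in every alternative that holds them. Under a 60th percentile floor 12 lost it. No paired analysis was possible because each group had 1 array and the labels give no replicate numbers. An additive fit of genotype and stimulation was not run.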

Other observations

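A few markers of other cells were bright outside the stimulated wildtype array. Csf3r, the granulocyte colony-stimulating factor receptor, had levels of 5.44 and 5.90 in the stimulated and unstimulated labelled knockout arrays, against 5.41 and 5.78 in the wildtype ones, in a list where S100a8 and Ltf were at the floor in 3 of the 4 arrays. Elane, the neutrophil elastase, had levels of 0.88 and 0.48 in the stimulated and unstimulated labelled knockout arrays, against 5.58 and 0.68 in the wildtype ones. B cell markers stayed low, with medians of -3.99 and -3.27 in the stimulated and unstimulated labelled knockout arrays and -4.52 and -4.12 in the wildtype ones, and Cd79b was highest in the unstimulated labelled knockout array (0.09).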
